A study of Homo sapiens with 12 samples.

Results

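Neuroblastoma (NB) cells given the ferroptosis inducer Erastin were examined for 10 genes, outside the NKG2D ligand family, whose products are read by natural killer (NK) cells or act as immune checkpoints. These were PVR, NECTIN2, NECTIN3, NCR3LG1, BAG6, CD276, CD274, CD47, CLEC2D and ICAM1, selected by gene name, and each had 1 row among the 58735 gene names counted. RNA was sequenced from KELLY cells, a MYCN-amplified NB line, and from SK-N-AS cells, an NB line without that amplification, after 24 h with Erastin or with the vehicle DMSO. KELLY cells received 1 µM and SK-N-AS cells 2 µM of Erastin, which blocks the cystine/glutamate antiporter, so line and dose cannot be told apart. Each of the 4 groups held 3 samples, seeded in triplicate from 1 cell line, and nothing states that they came from separate cultures, so the p-values below measure only the spread between these samples. No NK cells were part of these cultures.

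NK cells weigh activating against inhibitory signals from the surface of a target cell. PVR (CD155) and NECTIN2 (CD112) both bind the activating receptor DNAM-1 and the inhibitory receptor TIGIT. Of other inhibitory receptors, CD96 binds PVR and PVRIG binds NECTIN2, so that the same ligand can feed either arm. NCR3LG1 (B7-H6) and BAG6 are ligands of the activating receptor NKp30. CD274 (PD-L1), CD276 (B7-H3), CD47 and CLEC2D (LLT1) restrain lymphocytes or phagocytes, and ICAM1 is the adhesion molecule that the integrin LFA-1 grips when an NK cell forms its synapse. Transcription of ICAM1 and CD274 is known to respond to NF-kB and to interferon signalling.

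The promoter windows of ICAM1, CD274 and NECTIN2 are printed because these 3 genes differed most between the 2 lines (values below). Each window runs from 250 bases before to 50 bases after the RefSeq start site on GRCh38.p14 and lies on the plus strand, 5′ to 3′, at chr19:10270870-10271169 for ICAM1, chr9:5450292-5450591 for CD274 and chr19:44846047-44846346 for NECTIN2. Capitals mark matches to the NF-kB core letters GGNNNTTCC on either strand.
ICAM1: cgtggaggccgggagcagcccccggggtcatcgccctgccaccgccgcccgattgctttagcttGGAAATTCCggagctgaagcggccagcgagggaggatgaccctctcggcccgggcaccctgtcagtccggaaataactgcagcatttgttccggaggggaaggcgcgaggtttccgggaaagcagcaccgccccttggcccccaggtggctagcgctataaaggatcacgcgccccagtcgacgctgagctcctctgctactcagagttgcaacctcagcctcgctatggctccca
CD274: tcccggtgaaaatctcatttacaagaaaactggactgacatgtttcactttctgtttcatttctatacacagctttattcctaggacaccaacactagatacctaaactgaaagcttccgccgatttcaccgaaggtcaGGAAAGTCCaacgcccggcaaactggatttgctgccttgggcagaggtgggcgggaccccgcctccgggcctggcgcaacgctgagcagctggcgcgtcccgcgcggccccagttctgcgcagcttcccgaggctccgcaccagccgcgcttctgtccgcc
NECTIN2: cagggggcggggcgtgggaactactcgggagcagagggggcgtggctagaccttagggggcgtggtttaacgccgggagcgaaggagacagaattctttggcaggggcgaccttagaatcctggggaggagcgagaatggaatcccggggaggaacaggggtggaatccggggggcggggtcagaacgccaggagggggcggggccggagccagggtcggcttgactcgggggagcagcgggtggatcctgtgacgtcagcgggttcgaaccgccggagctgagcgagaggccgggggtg
The match in ICAM1 began at -186 from the start site and the match in CD274 at -111, and the NECTIN2 window held none. PVR and CD276 also had a match in their windows, and 20.1% of 27305 RefSeq promoters of the same length did. The interferon-stimulated element core GAAANNGAA, present in 8.29% of promoters, was found in CD274 alone among the 10 genes, in a pair of overlapping copies from -207 and -201. The STAT core TTCNNNGAA was found in CD274 and ICAM1 and in 7.88% of promoters, the TATA box letters TATAAA in ICAM1 and in 12% of promoters, and the AP-1 letters TGANTCA in CLEC2D and in 7.76%. NECTIN2 held the GC box letters GGGCGG at 3 places, and 44.6% of promoters held them at least once. The letters TGATGNAA, the core of the elements read by ATF4, were in 3.67% of promoters and in the window of no member. All these searches covered both strands, and a match describes the letters only.

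Total counts per sample lay between 24169796 and 29835670, so that 3 counts stood for 0.102 to 0.123 scaled CPM, the counts per 1000000 counts of a library after TMM scaling. As a check of the treatment, CHAC1, a glutathione-degrading enzyme of the ATF4 response, rose in SK-N-AS by 4.56 on the log2 scale (edgeR adjusted p = 1.54e-06), and its log2 fold change in KELLY was 2.94 at an adjusted p of 0.0903. With DMSO all 9 adrenergic neuroblast markers were higher in KELLY (edgeR adjusted p under 0.05), their summed level being 4618 to 7345 CPM against 987 to 1069 CPM in SK-N-AS, and all 7 mesenchymal markers were lower there, at 139.5 to 164 CPM against 2398 to 2727 CPM. Of 15 blood cell markers, PTPRC (CD45) had 547 ± 67.3 CPM (SD, n = 3) in SK-N-AS with DMSO and 0 counts in KELLY, while 7 others, CD2, CD3E, PRF1, KLRB1, NCR1, NCR3 and LYZ, were at 0 counts in SK-N-AS with DMSO. The summed level of that list was 520.6 to 662 CPM in SK-N-AS with DMSO and 0.569 to 1.40 CPM in KELLY with DMSO. PTPRC and CD96, the latter at 37.1 ± 4.32 CPM, made up nearly all of the SK-N-AS sum. In SK-N-AS with DMSO 11 of the 15 markers had at most 3 counts in each library. Libraries of the same group also differed in how abundance followed GC content. Spearman's rho of GC content with a library's log2 ratio to its line's mean, taken across 11586 genes that are no replicates of each other, spanned -0.824 to 0.858 among the KELLY libraries and -0.740 to 0.762 among those of SK-N-AS.

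No member passed the test of Erastin against DMSO in either line. In KELLY 8 members had enough counts to be tested, CD274 and ICAM1 being too low, and 0 of these had a Benjamini-Hochberg adjusted p under 0.05 in edgeR's quasi-likelihood test, where 0.00615% of all genes did. In SK-N-AS 0 of 10 passed, against 0.659% of all genes. At the threshold of the study's methods, an unadjusted p of at most 0.05 with a fold change of at least 1.5, the count was 0 in both lines, where 2.03% of all KELLY genes and 2.67% of all SK-N-AS genes passed. No member had an unadjusted p under 0.05, and DESeq2 and limma-voom also called 0 members in each line. In every member the Erastin and DMSO samples overlapped. Over all genes, 8.54% in KELLY and 14.8% in the other line had groups that did not overlap. With so few calls over all genes, a count of 0 is near the background and says nothing particular about these 10 genes. The median log2 fold change of the tested members was -0.0451 in KELLY, beside 0.00506 over all genes tested, and -0.128 in SK-N-AS, beside -0.00898.

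**Figure D1:**
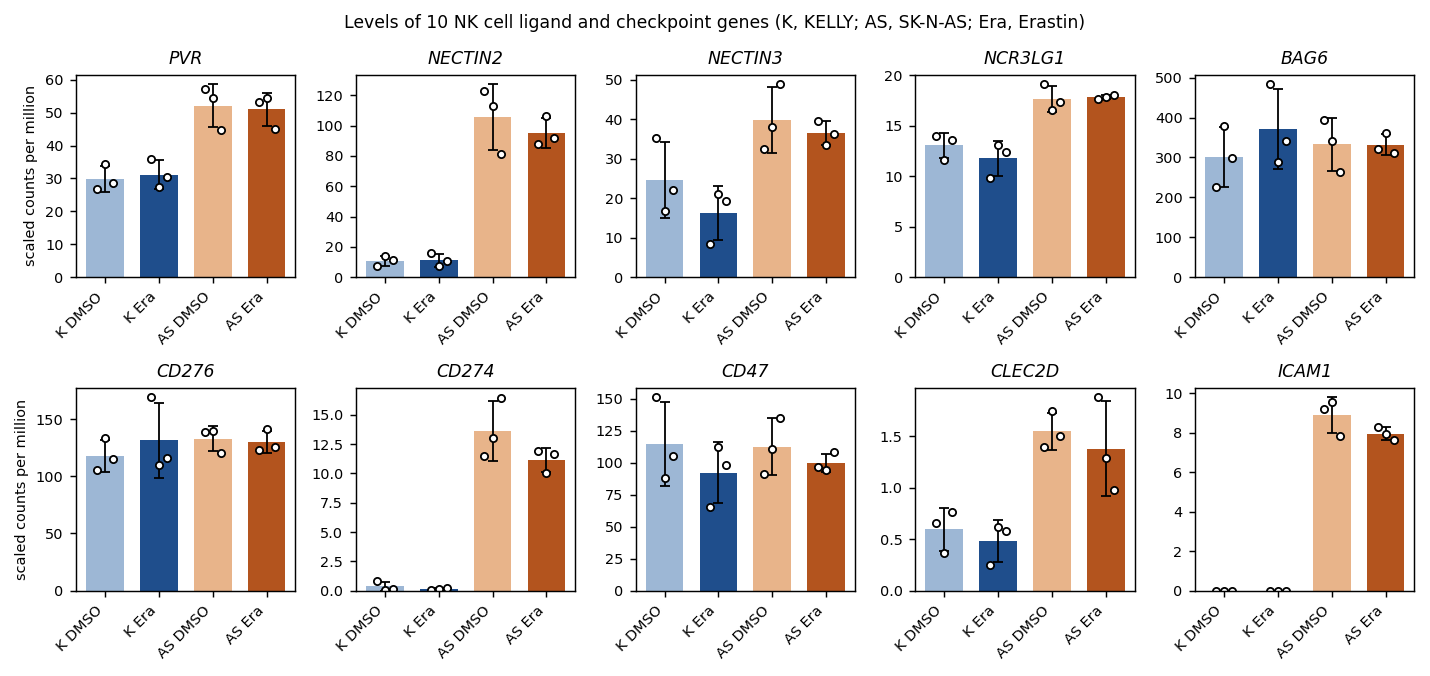
Scaled CPM of the 10 genes in each of the 4 groups (K, KELLY; AS, SK-N-AS; Era, Erastin), with points for the 3 samples, bars for the mean and error bars for the SD. The DMSO and Erastin points overlap in every panel, and ICAM1 is at 0 in all KELLY samples.

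PVR, on chromosome 19 (44643798 to 44666162, plus strand; GRCh38, GENCODE 44), encodes the poliovirus receptor. It had 26.9, 34.4 and 28.6 CPM in KELLY with DMSO and 35.8, 27.3 and 30.4 CPM with Erastin. SK-N-AS cells had 57.2, 54.5 and 44.9 CPM with DMSO and 53.4, 54.4 and 45.2 CPM with Erastin. The treated and control samples interleaved in both lines, whereas every SK-N-AS sample lay above every KELLY sample. With Erastin the log2 fold change (± standard error, SE) in KELLY was 0.06 ± 0.18 at an adjusted p of 0.898 from edgeR, and in SK-N-AS -0.02 ± 0.11 at 0.976. The 95% intervals were -0.36 to 0.48 for KELLY and -0.27 to 0.22 for SK-N-AS, so that a change of 1.5-fold in either direction lay outside it in both lines. In bulk RNA such as this, fewer cells carrying a transcript and less of it per cell cannot be told apart. Of the exon bases of PVR, 20.6% are shared with other genes on the same strand, CEACAM19 among them, and reads there could have been counted for neither gene.

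NECTIN2, also on chromosome 19 (44846175 to 44889223, plus strand), encodes the other main ligand of DNAM-1. It had 7.38, 14.1 and 11.1 CPM in KELLY with DMSO and 15.9, 7.36 and 10.6 CPM with Erastin. In SK-N-AS the values were 122.9, 112.6 and 81.4 CPM with DMSO and 87.7, 106.1 and 91.6 CPM with Erastin. In KELLY the libraries of both treatments covered much the same range, and neither treatment stood above the other. Its log2 fold change in KELLY was 0.06 (SE 0.34, edgeR adjusted p = 0.943), and in SK-N-AS -0.14 (SE 0.14, edgeR adjusted p = 0.859). In SK-N-AS DMSO replicate 3 was the lowest of the controls. Without that library NECTIN2 was lower with Erastin by -0.30 on the log2 scale, with an adjusted p of 0.0391 from edgeR. In that setting 855 of 16433 genes passed.

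NECTIN3, on chromosome 3 (111070071 to 111275563, plus strand), encodes an adhesion molecule that pairs with PVR and with NECTIN2 in cell contacts. Its levels were 35.4, 16.7 and 22.0 CPM in KELLY with DMSO and 8.53, 21.0 and 19.3 CPM with Erastin, and in SK-N-AS 32.4, 38.1 and 48.9 CPM with DMSO and 39.6, 33.4 and 36.4 CPM with Erastin. In KELLY 1 control library was the highest and 1 Erastin library the lowest of the 6, and the other 4 lay between 16.7 and 22.0 CPM. NECTIN3 had the widest difference of the 8 members tested in KELLY, with a log2 fold change of -0.60 (SE 0.39, 95% interval -1.51 to 0.31, edgeR adjusted p = 0.770). Without those 2 libraries, a setting chosen after seeing the data, the value was 0.06. In SK-N-AS it was -0.12 (SE 0.14).

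The ligands of NKp30 were likewise within the spread of their replicates. NCR3LG1, on chromosome 11 (17351800 to 17377341, plus strand), encodes B7-H6, a surface protein seen on many tumor cells and on few normal ones. It had 13.9, 11.6 and 13.6 CPM in KELLY with DMSO and 9.80, 13.1 and 12.4 CPM with Erastin. In SK-N-AS NCR3LG1 had 19.1, 16.6 and 17.3 CPM with DMSO and 17.6, 17.9 and 18.0 CPM with Erastin, where its coefficients of variation, 7.44% and 1.11%, were the lowest of the 10 members in that line. The log2 fold changes were -0.15 in KELLY (SE 0.18) and 0.02 in SK-N-AS (SE 0.11, 95% interval -0.21 to 0.25).

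BAG6, on chromosome 6 (31639028 to 31652705, minus strand) within the major histocompatibility region, encodes a chaperone of protein quality control that is also released to bind NKp30. It was counted 5816, 9300 and 8543 times in KELLY with DMSO and 11793, 7443 and 9428 times with Erastin. On the scaled axis these were 226, 378 and 299 CPM with DMSO and 484, 288 and 341 CPM with Erastin, and the same 2 libraries that were at the ends for NECTIN3 were at the ends here, in the opposite order. SK-N-AS had 394, 342 and 262 CPM with DMSO and 322, 362 and 312 CPM with Erastin. The log2 fold change was 0.31 in KELLY (SE 0.25, edgeR adjusted p = 0.770) and 0.00 in SK-N-AS (SE 0.13, 95% interval -0.27 to 0.28).

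Of the B7 family checkpoints, CD276 had ample counts in both lines and CD274 in SK-N-AS alone. CD276, on chromosome 15 (73683966 to 73714514, plus strand), encodes B7-H3, a target of antibody and cell therapies in NB. It had 106, 133 and 115 CPM in KELLY with DMSO and 169, 109.6 and 116 CPM with Erastin, against 139, 139 and 121 CPM with DMSO and 123, 141 and 126 CPM with Erastin in SK-N-AS. Apart from the 1 KELLY Erastin library at 169 CPM, the 11 others spanned 106 to 141 CPM. The log2 fold change was 0.16 in KELLY (SE 0.21) and -0.02 in SK-N-AS (SE 0.09).

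CD274, on chromosome 9 (5450503 to 5470566, plus strand), encodes PD-L1, the ligand of the checkpoint receptor PD-1. In KELLY it was counted 21, 2 and 4 times with DMSO and 1, 3 and 6 times with Erastin, too few to test. In SK-N-AS it had 11.5, 13.0 and 16.5 CPM with DMSO and 11.9, 10.0 and 11.7 CPM with Erastin, the groups overlapping through the lowest control. This was the smallest p of any member with Erastin in that line, 0.0840 before and 0.654 after adjustment in edgeR's test, at a log2 fold change of -0.28 (SE 0.15, 95% interval -0.60 to 0.04). A rise of 1.5-fold lay outside that interval and a fall of that size did not.

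CD47, on chromosome 3 (108043091 to 108091862, minus strand), encodes the signal that holds off phagocytes through SIRPA. It had 151, 88.0 and 105 CPM in KELLY with DMSO and 65.5, 112 and 98.1 CPM with Erastin, and in SK-N-AS 91.1, 111 and 135 CPM with DMSO and 96.3, 94.4 and 108 CPM with Erastin. The widest KELLY values again came from replicate 1 of each treatment, and the groups overlapped in both lines. Its log2 fold changes were -0.32 in KELLY (SE 0.27) and -0.16 in SK-N-AS (SE 0.13, adjusted p = 0.815 from edgeR).

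CLEC2D, on chromosome 12 (9664969 to 9699553, plus strand), encodes a ligand of the inhibitory NK receptor CD161, and was near the limit of detection. It was counted 17, 9 and 22 times in KELLY with DMSO and 6, 16 and 16 times with Erastin, and 38, 44 and 40 times in SK-N-AS with DMSO and 51, 38 and 25 times with Erastin. At this depth the intervals were wide, from -1.45 to 0.83 in KELLY around a log2 fold change of -0.31, and from -0.76 to 0.46 in SK-N-AS around -0.15. The processed pseudogene NPM1P7 shares 12.1% of its exon bases, so part of these few counts may have been assigned elsewhere.

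ICAM1, on chromosome 19 (10271093 to 10286615, plus strand), was counted 0 times in all 6 KELLY libraries, whether with DMSO or with Erastin. In SK-N-AS it was counted 250, 241 and 209 times with DMSO and 225, 233 and 196 times with Erastin, which is 9.20, 9.57 and 7.85 CPM and 8.29, 7.93 and 7.64 CPM. The log2 fold change in SK-N-AS was -0.15 (SE 0.13, 95% interval -0.43 to 0.13, adjusted p = 0.842 from edgeR). Its exon bases overlap the opposite-strand genes ICAM4-AS1 and LIMASI over 25.4%, and whether strand was used in counting is not given in the sources used here.

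Over the members, the 95% interval lay wholly inside a 1.5-fold change in either direction for 2 of 8 in KELLY, PVR and NCR3LG1, and for 8 of 10 in SK-N-AS, all but CD274 and CLEC2D. Of the other 6 in KELLY, the interval of BAG6 and of CD276 reached past a 1.5-fold rise but not a fall of that size, that of NECTIN3 and of CD47 past a fall but not a rise, and that of NECTIN2 and of CLEC2D past both. Replicate scatter was larger in KELLY, where edgeR's common biological coefficient of variation was 0.246 against 0.105 in SK-N-AS. The response was not shown to differ between the lines for any member: in the interaction test of SK-N-AS minus KELLY 0 of 10 members passed, beside 0.00548% of all genes, with edgeR adjusted p-values of 0.811 to 0.953 for the 9 members other than ICAM1, which has no response to compare in KELLY. DESeq2 and limma-voom called 0 members in this test as well, and no member had an unadjusted p under 0.05.

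**Figure D2:**
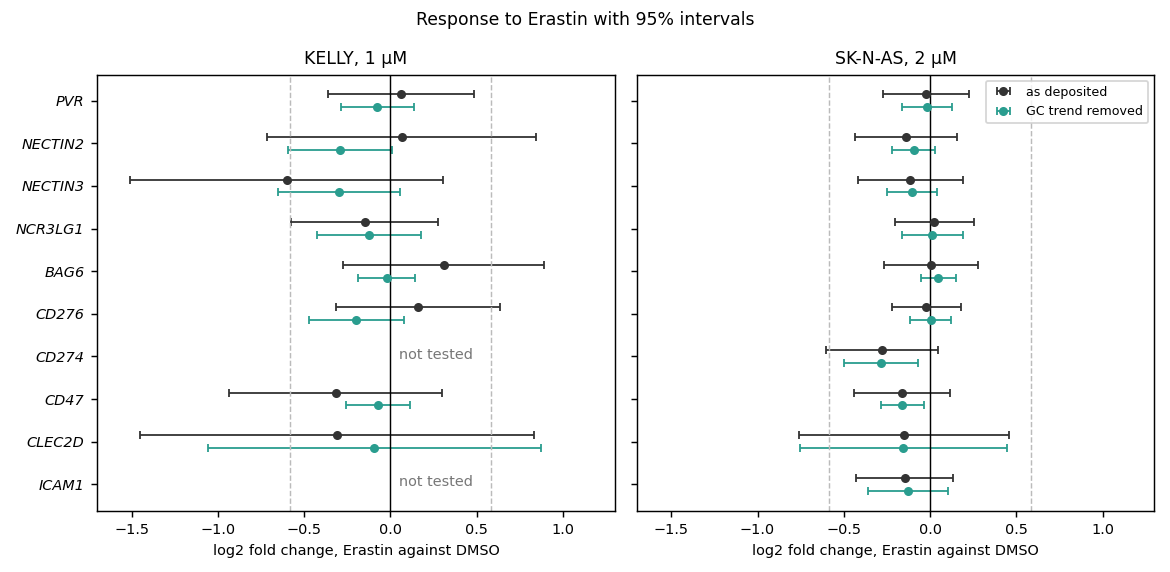
Log2 fold change of each member, Erastin against DMSO, with its 95% interval in KELLY (left) and SK-N-AS (right), as deposited (dark) and with each library's GC trend removed (green). Dashed lines mark a 1.5-fold change. Every interval as deposited includes 0, and the intervals in KELLY narrow when the GC trend is removed.

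The scatter of the KELLY libraries ordered the members by base composition. NECTIN2, BAG6 and CD276, whose transcripts hold 60.8%, 60.1% and 60.0% GC, were highest in Erastin replicate 1. BAG6 and CD276 were lowest in DMSO replicate 1, and NECTIN2 was lowest there and in Erastin replicate 2, at 7.38 and 7.36 CPM. NECTIN3 and CD47, with 35.3% and 38.4% GC, were highest in DMSO replicate 1 and lowest in Erastin replicate 1. These 2 libraries had the most extreme correlations of abundance with GC content, -0.824 and 0.858. In likeness across the 12 samples, after the mean of each line was taken off, NECTIN3 was closest to LYPLA1, CACNA2D1 and TWF1, each with Pearson's r = 0.996 among 12356 genes, and the transcripts of these genes held 35.2%, 37.8% and 38.6% GC. The points share their libraries and this trend, so r is given as a description.

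**Figure D3:**
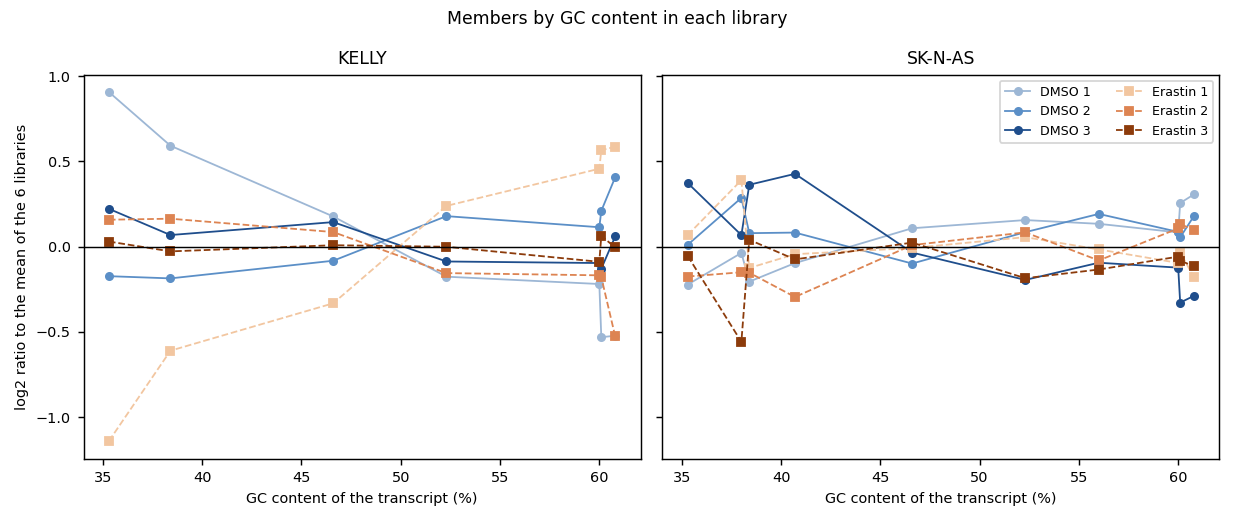
Log2 ratio of each member with at least 10 counts in every library of a line to the mean of the 6 libraries of that line, plotted against the GC content of its transcript in percent, 1 line per library (circles and solid lines, DMSO; squares and dashed lines, Erastin). In KELLY, DMSO replicate 1 slopes down and Erastin replicate 1 slopes up with GC content.

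When each library's GC trend was removed, the replicates of most members drew together. For BAG6 in KELLY the coefficient of variation fell from 25.2% to 3.41% with DMSO and from 27.2% to 0.596% with Erastin, and the 6 values then lay between 319 and 342 CPM. For NECTIN2 in KELLY with DMSO it fell from 30.8% to 3.55%. CD276 in KELLY with DMSO went the other way, from 11.8% to 17.6%. On these values 0 of 8 members in KELLY and 0 of 10 in SK-N-AS had an adjusted p under 0.05 from edgeR, where 0.191% and 5.57% of all genes did. All 8 log2 fold changes in KELLY were then below 0, which for PVR, NECTIN2, BAG6 and CD276 was a change of sign, and NECTIN2 had the largest fall in proportion to its error, -0.29 with an unadjusted p of 0.0567. In SK-N-AS CD274 stayed at -0.28 (SE 0.10, edgeR adjusted p = 0.121) and CD47 at -0.16 (SE 0.06, edgeR adjusted p = 0.131). These were the 2 of 10 members with an unadjusted p under 0.05 on those values. Over all genes 3198 of 16095 had one, so that the count is near the background. The interval lay inside a 1.5-fold change for 5 of 8 members in KELLY and for 9 of 10 in SK-N-AS.

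Control levels differed between the lines for more of the members. With DMSO, 6 of the 10 members were lower in KELLY at an adjusted p under 0.05 (edgeR) and 0 were higher. Of all 17089 genes tested 61.3% differed and 30.3% were lower in KELLY, so that a share of 6 in 10 that differed is near the background. CD274, ICAM1 and CLEC2D had reached the filter on low counts in the SK-N-AS controls alone, so that the filter bears on their direction, and the share of members lower in KELLY is not read against that of all genes. Of the other 7 members 3 were lower, PVR, NECTIN2 and NCR3LG1, where of the 13232 genes past the filter in each line 57.3% differed and 28.5% were lower. The mesenchymal and adrenergic marker sums given above moved with this comparison as well, as did the blood cell marker sum, which in SK-N-AS was mostly PTPRC. The part of these sums in it was not tested. The median log2 difference over those 7 members, KELLY minus SK-N-AS, was -0.42, beside 0.02 over all genes past the filter in each line.

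NECTIN2 was the widest of the members with ample counts in both lines. Its mean was 10.8 ± 3.34 CPM in KELLY and 106 ± 21.6 CPM in SK-N-AS (SD, n = 3), a log2 difference of -3.27 (SE 0.27, edgeR adjusted p = 1.00e-05) or 9.66-fold. PVR differed by -0.79 (SE 0.17, edgeR adjusted p = 0.00297), or 1.72-fold. With each library's GC trend removed the values were -3.30 and -0.79. That trend was taken against the mean of each line's own libraries, so its removal cannot test a GC difference between the lines. Both ligands passed in all 16 alternatives. NECTIN3 differed by -0.67 (adjusted p = 0.0662 from edgeR), its groups overlapped, and it passed in 5 of 16 alternatives.

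ICAM1, CD274 and CLEC2D were absent or rare in KELLY, and BAG6, CD276 and CD47 were at like levels in both lines. ICAM1, at 0 counts in KELLY, was lower there by at least 77.6-fold with DMSO and by at least 68.6-fold with Erastin, taking 3 counts per library as the limit that a count of 0 allows. CD274 was 38.8-fold lower in KELLY (log2 difference -5.28, standard error 0.56, adjusted p = 5.00e-05 from edgeR), and without KELLY DMSO replicate 1, the library with 21 counts, the log2 difference was -6.85. CLEC2D differed by -1.34 (SE 0.35, adjusted p = 0.00967 from edgeR), with 9 to 22 counts in KELLY and 38 to 44 in SK-N-AS. NCR3LG1 differed by -0.42 (SE 0.16, adjusted p = 0.0465 from edgeR), and this call was lost in 9 of 16 alternatives, where its adjusted p reached 0.137. BAG6 differed by -0.13 (95% interval -0.62 to 0.36), CD276 by -0.16 (-0.48 to 0.16) and CD47 by 0.04 (-0.47 to 0.56), all within 1.5-fold of equality except at the lower end of the BAG6 interval.

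**Figure D4:**
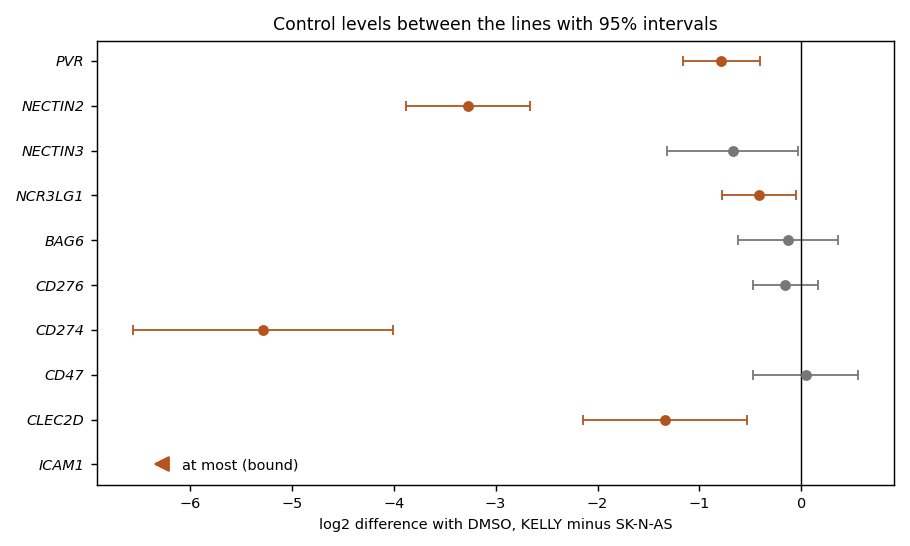
Log2 difference of each member with DMSO, KELLY minus SK-N-AS, with 95% intervals; orange marks an adjusted p under 0.05 and grey the rest. ICAM1 is drawn as a bound, since it had 0 counts in KELLY, and 6 members lie left of 0 in orange.

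Levels of different genes were compared as RPKM (CPM per kilobase of exon, from GENCODE 44 exon lengths). BAG6 was the most abundant member in both lines, at 47.6 ± 12.0 RPKM in the KELLY controls and 52.6 ± 10.5 RPKM in the SK-N-AS controls (SD, n = 3). It lay above 95.9% of the detected protein-coding genes in each. In KELLY CD276 followed at 21.5 ± 2.55 RPKM and CD47 at 13.9 ± 3.94 RPKM, each clear of its neighbours in the order. NECTIN3, NECTIN2 and PVR came next at 3.20, 2.89 and 2.87 RPKM with overlapping ranges, then NCR3LG1 at 2.06 RPKM, and CLEC2D and CD274 under 0.2 RPKM in every sample. In SK-N-AS NECTIN2 stood beside CD276, at 28.2 ± 5.78 and 24.3 ± 1.97 RPKM with overlapping ranges, ahead of CD47 at 13.7 RPKM. NECTIN3 and PVR overlapped at 5.15 and 5.00 RPKM, as did CD274, NCR3LG1 and ICAM1 at 3.32, 2.78 and 2.57 RPKM, each with the next, and CLEC2D was last at 0.223 RPKM. NECTIN2 thus lay above 46.3% of detected protein-coding genes in KELLY and above 90.7% in SK-N-AS.

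**Figure D5:**
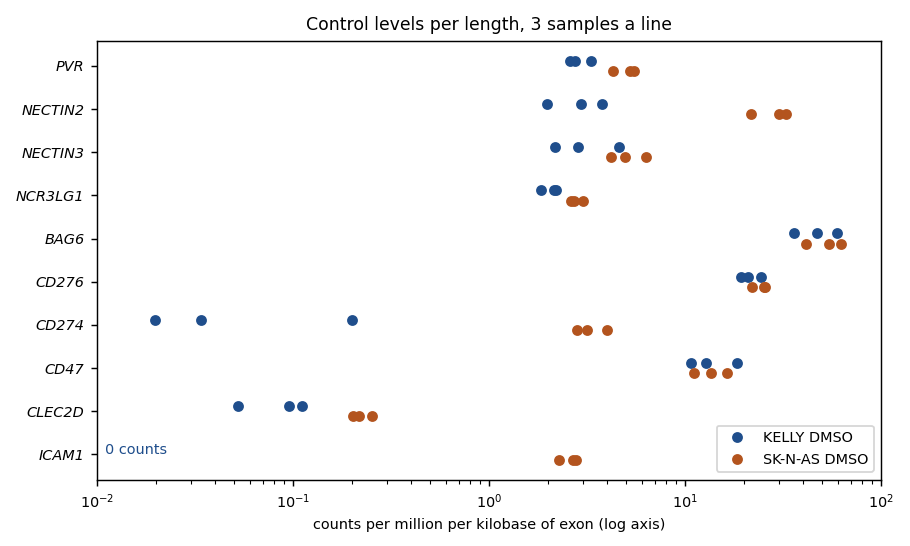
RPKM (CPM per kilobase of exon) of the 10 members in the 3 DMSO samples of each line, on a log axis (blue, KELLY; orange, SK-N-AS). BAG6, CD276, CD47 and NECTIN3 overlap between the lines. NECTIN2 and CD274 are far apart, PVR, NCR3LG1 and CLEC2D are apart by less, and ICAM1 has 0 counts in KELLY.

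Other genes of the same pathways were counted from 6 lists, 56 genes in all. With Erastin, 0 of 34 tested in KELLY and 0 of 38 in SK-N-AS had an adjusted p under 0.05 from edgeR. An unadjusted p under 0.05 was found for 3 of the 34 and 8 of the 38. These are larger shares than the 2.64% and 8.77% over all genes tested, and the excess was not tested. DESeq2 called 1 of them, CD24 in SK-N-AS, and limma-voom 0. Between the lines 11 of 42 were higher in KELLY and 22 lower, beside 30.9% and 30.3% of all genes tested. Of the 42, 14 had reached the filter in the controls of 1 line alone, and of the other 28, 6 were higher and 14 lower, beside 28.8% and 28.5% of all genes past the filter in each line.

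A further list held other nectins, nectin-like adhesion molecules and afadin (AFDN), the adaptor that nectins bind inside the cell. In it 5 of 6 genes tested were higher in KELLY and 0 lower, beside 30.9% and 30.3% of all genes tested. CADM3 had reached the filter in KELLY alone. Of the other 5 genes 4 were higher, beside 28.8% of all genes past the filter in each line. Among the members of the nectin family PVR and NECTIN2 were lower and NECTIN3 differed by the -0.67 given above. CADM3, a nectin-like molecule of neurons, had 120, 281 and 326 counts in KELLY and 0, 2 and 0 in SK-N-AS, at least 80.3-fold more. CADM1, the ligand of the NK cell receptor CRTAM, was higher by 1.23 (adjusted p = 0.000131 from edgeR), NECTIN1 by 1.08 (adjusted p = 0.00537) and CADM4 by 0.68 (adjusted p = 0.0498). The call on CADM4 was lost with limma-voom, and its groups overlapped. Of other B7 family members and proteins that stabilise PD-L1, 3 of 5 were lower in KELLY and 0 higher, beside 30.3% and 30.9% of all genes tested. PDCD1LG2 and HHLA2 had reached the filter in SK-N-AS alone, so that the filter bears on their direction. Of the other 3 genes 1 was lower, CMTM6, beside 28.5% of all genes past the filter in each line. PDCD1LG2, which encodes the second ligand of PD-1 and lies beside CD274, differed by -4.05 (adjusted p = 0.000428 from edgeR), with 9, 1 and 1 counts in KELLY and 59, 64 and 67 in SK-N-AS. CMTM6, which keeps PD-L1 at the cell surface, differed by -0.70 (adjusted p = 0.0114), and HHLA2, at 0 counts in KELLY, was at least 4.76-fold lower there.

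Around CD47, itself at like levels, all 7 genes tested differed between the lines, beside 61.3% of all genes. Of the 7, 2 were higher and 5 lower in KELLY, beside 30.9% and 30.3% of all genes tested. QPCT had reached the filter in KELLY alone. Of the other 6 genes 1 was higher and 5 lower, beside 28.8% and 28.5% of all genes past the filter in each line. THBS1, a secreted ligand of CD47, was lower by -9.23 and SIRPA, its receptor on phagocytes, by -1.20. QPCT, a glutaminyl cyclase, was higher by 5.16, and CD24, a phagocytosis signal of its own, by 4.65. Each of these 4 had an adjusted p of at most 0.00026 in edgeR's test. QPCTL, the related Golgi enzyme that modifies the CD47 N-terminus that SIRPA binds, went the other way, at a log2 difference of -0.99 (adjusted p = 0.00122 from edgeR). Of 5 other adhesion and costimulatory ligands tested, ICAM2, a further ligand of LFA-1, was higher in KELLY by 4.66 (adjusted p = 8.28e-05 from edgeR), with 74, 82 and 77 counts against 1, 1 and 7. VCAM1, like ICAM1, had 0 counts in all 6 KELLY libraries and was at least 201-fold higher in SK-N-AS with DMSO. ICAM2 had reached the filter in KELLY alone and VCAM1 in SK-N-AS alone, so that the filter bears on their direction. Of the 2 genes of that list past the filter in each line, 0 passed. Of 4 other checkpoint ligands 3 were higher in KELLY, TNFRSF14 by 3.65, CD200 by 3.40 and LGALS9 by 2.39, beside 30.9% of all genes tested. TNFRSF14 and LGALS9 had reached the filter in KELLY alone, so that the filter bears on their direction. Of the other 2 genes 1 was higher, CD200, beside 28.8% of all genes past the filter in each line.

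Genes of the NF-kB and interferon responses were lower in KELLY in 13 of 15 cases and higher in 0, beside 30.3% and 30.9% of all genes tested. BIRC3, CCL2, CXCL8, RELB and TNFAIP3 had reached the filter in SK-N-AS alone. Of the other 10 genes 8 were lower, beside 28.5% of all genes past the filter in each line. NFKBIE and JAK2 had log2 differences of 0.48 and 0.21 and did not pass. Any link of this list to the levels of ICAM1 and CD274 was not tested. RELB, a subunit of NF-kB, was counted 0, 5 and 1 times in KELLY and 495, 480 and 421 times in SK-N-AS. CCL2, a chemokine, was at least 383-fold lower in KELLY, CXCL8 with 0 counts there at least 6.56-fold lower, and BIRC3, an inhibitor of apoptosis, differed by -5.30 (adjusted p = 7.44e-06 from edgeR). Of the receptors of the members, CD96, which binds PVR, was counted 879, 960 and 1085 times in SK-N-AS with DMSO and 0 times in KELLY with DMSO. TIGIT had at most 4 counts in any library, and CD226, which encodes DNAM-1, had 9 to 32.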

How the data were processed

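RNA-seq of KELLY and SK-N-AS cells was read as the authors deposited it, as raw counts per gene without normalization. Per the study's methods, paired-end reads of 150 bases were aligned to GRCh38 and counted with HTSeq 2.0.3 on GENCODE 29. The aligner and the strand setting are not given in the sources used here. Erastin was compared with DMSO within each line with edgeR 4.0.16 in R 4.3.3 (filterByExpr defaults, TMM scaling, quasi-likelihood test, Benjamini-Hochberg adjustment over all genes tested). The DMSO samples of the lines, and the interaction over 12 samples, were fitted likewise. DESeq2 1.42.0 and limma 3.58.1 (voom) were alternatives, beside other scalings, filters, a replicate block, a GC correction (loess, span 0.5) and each replicate left out. GC content was known for 83.5% to 86.2% of the genes tested. Positions, lengths and GC content came from GENCODE 44 by symbol, promoters from RefSeq. The fits were also run on simulated counts. These held no GC trend per library, so they do not bear on the replicate spread seen here. Named were all 10 members and, of each other list, up to 4 genes past the adjusted threshold with the largest fold change. AFDN, QPCTL, TNFAIP3, NFKBIE, JAK2, CD226, TIGIT and the blood markers were named after their values were seen. Likeness was computed for the member with the smallest p in each line. In SK-N-AS this was CD274, which was under the limit of mean abundance. Members and lists were chosen with earlier results of these data known. RPKM and CPM were computed here from the counts.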

Additional observations from a re-analysis of the deposited data

How the results depend on the processing

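The count of 0 members past the adjusted threshold with Erastin in KELLY was the same in all 18 alternatives, and at the threshold of the methods it was 1 (NECTIN3) without the filter on low counts. In SK-N-AS the count was 1 (CD47, adjusted p = 0.0255 from edgeR) under the replicate block with the GC trend removed, where 1510 of 16095 genes passed. It ranged from 0 to 1 with 1 sample left out. The 1 was NECTIN2 without DMSO replicate 3, where 855 of 16433 genes passed. Between the lines the count was 3 with at least 10 counts required in every sample, where 7 members were tested and 7608 of 13327 genes passed. It was 5 to 7 otherwise, beside 61.3% of all genes tested in the fit given above. The replicate number as a block alone left 5 members there, NCR3LG1 being lost (log2 difference -0.42, adjusted p = 0.125 from edgeR), and changed no other call. Deviations from the group means were correlated between same-numbered samples. The values were -0.756, -0.788 and -0.121 in KELLY, -0.0998, 0.2 and 0.34 in SK-N-AS and -0.663, 0.227 and -0.279 between the controls. These deviations also hold each library's GC trend, so they cannot show whether same-numbered samples shared a culture or batch. With the block, the genes past the adjusted threshold went from 106 to 308 in SK-N-AS, from 1 to 0 in KELLY and from 10473 to 9041 between the controls.

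The values that changed sign, all log2 values that passed no test as deposited, were grouped as follows. In KELLY with the GC trend removed they were PVR at -0.075, NECTIN2 at -0.29, BAG6 at -0.023 and CD276 at -0.20, with the replicate block as well PVR at -0.075, NECTIN2 at -0.30, BAG6 at -0.022 and CD276 at -0.19, and without replicate 1 of each treatment PVR at -0.12, NECTIN2 at -0.48, NECTIN3 at 0.059, NCR3LG1 at 0.014, BAG6 at -0.10, CD276 at -0.14, CD47 at 0.13 and CLEC2D at 0.062. In SK-N-AS they were CD276 at 0.0030 with the GC trend removed and 0.0045 with the block as well, and BAG6 at -0.0050 with 12 samples in 1 fit. In the interaction the GC-corrected values were PVR at 0.057, NECTIN2 at 0.20, BAG6 at 0.075, CD276 at 0.20, CD47 at -0.091 and CLEC2D at -0.076, and with the block PVR at 0.056, NECTIN2 at 0.21, BAG6 at 0.076, CD276 at 0.20, CD47 at -0.091 and CLEC2D at -0.10. With 1 sample left out, the ranges that crossed 0 were in KELLY PVR from -0.057 to 0.17, NECTIN2 from -0.27 to 0.29 and CD276 from -0.068 to 0.27, in SK-N-AS PVR from -0.12 to 0.058, NECTIN3 from -0.25 to 0.062, NCR3LG1 from -0.016 to 0.084, BAG6 from -0.14 to 0.14, CD276 from -0.087 to 0.019 and CLEC2D from -0.43 to 0.042, between the controls BAG6 from -0.33 to 0.043 and CD47 from -0.20 to 0.20, and in the interaction PVR from -0.20 to 0.020, NECTIN2 from -0.44 to 0.12, CD276 from -0.30 to 0.034, CD274 from -0.47 to 1.75, CD47 from -0.11 to 0.31 and CLEC2D from -0.16 to 0.39. Where a group kept 2 samples, the spread was pooled over both groups. Why NECTIN2 and CD47 passed in 1 setting each was not tested.

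No scaling moved the median of all genes by 0.1 or more on the log2 scale. CLEC2D, with at most 51 counts, and CD274 in KELLY, with at most 21, were limited by depth, and the KELLY comparisons by the spread of replicates. RNA levels say nothing of protein at the cell surface.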
